A study of Arabidopsis thaliana with 12 samples.

Results

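Photosystem I is the light-driven enzyme of the thylakoid membrane that takes electrons from plastocyanin on the lumenal side and passes them to ferredoxin on the stromal side. Paraquat, a bipyridinium herbicide, takes electrons there in place of ferredoxin and hands them to oxygen, which gives superoxide. Most small subunits of the complex, and the factors that assemble it, are encoded in the nucleus, and those are the transcripts that an array of nuclear genes can follow.

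The results concern 2 genes, PSAN (AT5G64040) and AT1G22700, each found by its symbol in the platform's annotation of the probes. PSAN is a small extrinsic subunit on the lumenal side of photosystem I, near the site where plastocyanin delivers its electron. AT1G22700 is a tetratricopeptide repeat protein of the thylakoid that is no part of the finished complex and is needed for its assembly. Each gene had 1 probe that lists it alone, so the results rest on 2 of 3439 probes, or 2 of the 691 genes with a probe of their own. RefSeq lists 2 transcripts for PSAN and 3 for AT1G22700, which 1 probe per gene cannot tell apart.

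The RNA came from wild-type Arabidopsis thaliana, ecotype Landsberg: 6 samples had been given 50 µM paraquat and 6 had been given water. Both groups were kept dark for 12 h, then returned to light and sampled 30 min later. Samples are numbered 1 to 6 in each group. The labels name no tissue, and do not say whether the numbers are separate plants, pools of plants, hybridisations or readings, so each p-value covers the spread of these samples alone, which may be technical.

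Values are array intensities in the authors' own scaled units. Column medians lay between 0.563 and 0.635 under paraquat and between 0.443 and 0.491 under water, and quantile normalization was used to make the columns comparable. Samples 1 and 2 stood apart: their log2 values correlated with those of samples 3 to 6 at 0.876 to 0.892 under paraquat and 0.756 to 0.797 under water. Samples 3 to 6 correlated among themselves at 0.912 to 0.949 under paraquat and 0.841 to 0.937 under water. No 2 of the 12 columns were identical. Of 7 markers fixed for green tissue, LHB1B2 and PRK had a probe of their own, and both were above 0 in all 12 samples. LHB1B2 ran from 9.26 to 13.1 under paraquat and from 15.4 to 23.3 under water, and PRK, an enzyme of the Calvin cycle, from 0.335 to 0.594 under paraquat and from 0.644 to 1.40 under water.

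AT1G22700 was higher under paraquat. Its deposited intensity was 0.360, 0.457, 0.344, 0.280, 0.322 and 0.281 in paraquat samples 1 to 6, against 0.127, 0.211, 0.192, 0.123, 0.218 and 0.146 in water samples 1 to 6. Every paraquat sample lay above every water sample, and the closest values were the 0.280 of paraquat sample 4 and the 0.218 of water sample 5. Such a separation was common on this array: 20.8% of all probes had all 6 paraquat samples above all 6 water samples.

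The mean deposited intensity of AT1G22700 was 0.341 ± 0.065 under paraquat and 0.169 ± 0.043 under water (SD, n = 6 each). After quantile normalization the log2 fold change was 0.93 ± 0.21 (SE, n = 6 per group, limma adjusted p = 0.00244), a 1.91-fold difference with a 95% confidence interval of 1.40 to 2.61. In each of the 6 numbered pairs the paraquat sample was the higher one, by 0.38 to 1.42 on the log2 scale, as for 24.4% of all probes. The groups did not overlap after normalization either (lowest under paraquat -1.91, highest under water -2.07). That separation fixed the direction in every pair, so the pairs add no support beyond it. In this fit 52.5% of all probes passed the threshold of 0.05, and 24% passed it as higher under paraquat, so a call of this kind is not particular to AT1G22700. Of the 692 probes that list 1 gene, 109 had a higher log2 fold change. In bulk RNA, more cells with the transcript and more of it per cell cannot be told apart.

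PSAN showed no difference that passed the test. Its deposited intensity was 4.70, 4.62, 3.89, 5.08, 6.54 and 7.23 in paraquat samples 1 to 6, against 8.96, 7.89, 4.76, 4.98, 7.25 and 5.45 in water samples 1 to 6. The groups overlapped over most of their range: the lowest value was that of paraquat sample 3 and the highest were those of water samples 1 and 2.

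The mean deposited intensity of PSAN was 5.34 ± 1.28 under paraquat and 6.55 ± 1.73 under water (SD, n = 6 each). The normalized log2 fold change was -0.06 ± 0.19 (SE, n = 6 per group, limma adjusted p = 0.828), and its 95% confidence interval ran from a 0.720-fold to a 1.29-fold level. In 3 of 6 numbered pairs PSAN was higher under paraquat after normalization, and in 2 of 6 as deposited. Its place among all probes was close to the middle, with 48.9% of log2 fold changes at or below it. The SE of both members was near the median of all probes, at 0.19 for PSAN and 0.21 for AT1G22700 against a median of 0.19.

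**Figure D1:**
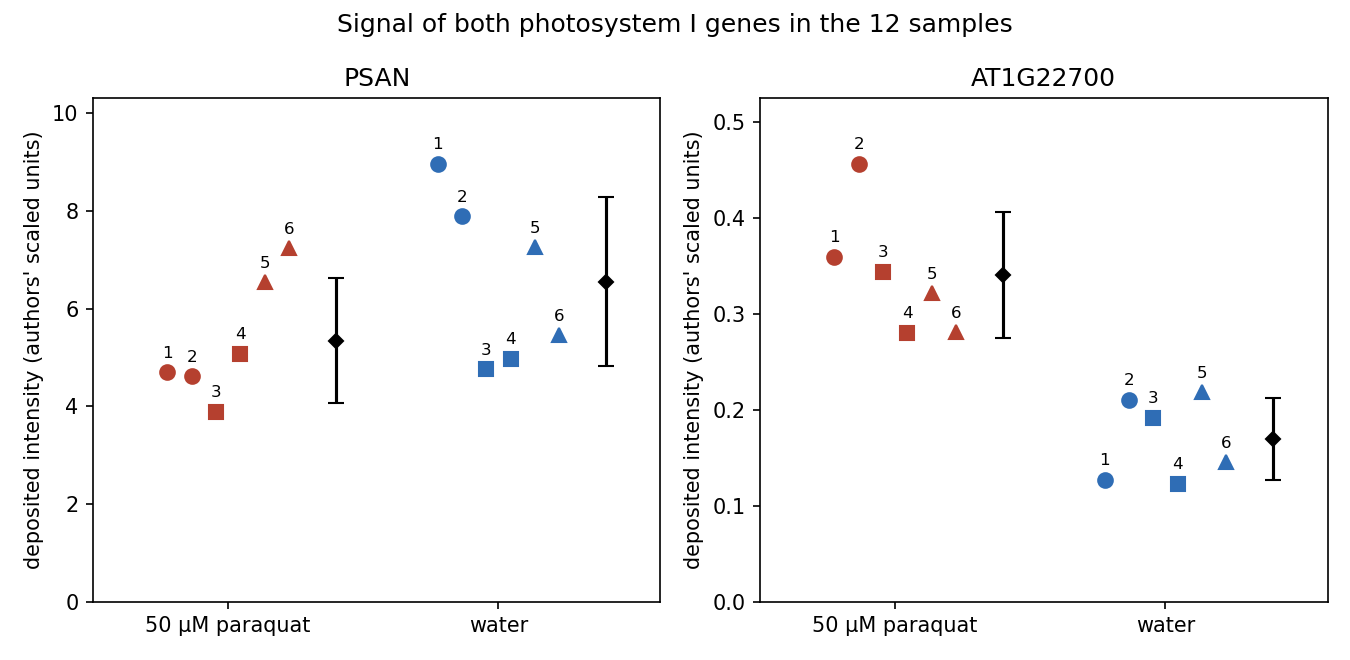
Deposited intensity (authors' scaled units, linear axis from 0) of PSAN and AT1G22700 in each sample, with 50 µM paraquat left of water; the small numbers are the sample numbers, equal symbols mark neighbouring numbers, and black diamonds with bars are means ± SD (n = 6). The AT1G22700 values of the 2 groups do not overlap, with 0.280 as the lowest under paraquat and 0.218 as the highest under water, while the PSAN values do.

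The probes differed in brightness. PSAN lay between the 97.6th and 98.9th percentile of all probes of its sample under paraquat and between the 97.8th and 99.0th under water. AT1G22700 was a dim probe, between the 21.8th and 36.5th percentile under paraquat and between the 7.68th and 18.8th under water. Its lowest values, 0.123 and 0.127 in water samples 4 and 1, were close to the 5th percentile of all values above 0 on the array, 0.118. Neither probe was listed at 0 in any sample. With 0.1 added to each value before the log2, which weighs dim values less, the log2 fold change of AT1G22700 was 0.63 (adjusted p = 0.00155, with 24.8% of all probes called higher).

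The members varied in different ways inside each group. PSAN followed neighbouring sample numbers: the SD within neighbours (1 with 2, 3 with 4, 5 with 6) was 0.18 on the normalized log2 scale under paraquat and 0.16 under water, and the SD between the 3 neighbour means was 0.34 under paraquat and 0.36 under water. AT1G22700 had an SD within neighbours of 0.20 under paraquat and 0.54 under water, and an SD between neighbour means of 0.16 under paraquat and 0.26 under water. Each SD between neighbour means rests on 3 values. These SDs were not computed for the other probes, so the pattern is not shown to be particular to PSAN. Whether neighbouring numbers are repeated readings of 1 RNA is not stated.

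Taken by neighbouring numbers, the mean deposited PSAN intensity was 4.66 under paraquat against 8.43 under water for numbers 1 and 2. It was 4.48 under paraquat against 4.87 under water for numbers 3 and 4, and 6.89 under paraquat against 6.35 under water for numbers 5 and 6. The normalized log2 differences were -0.58, 0.05 and 0.37, so the neighbour pairs went in opposite directions for PSAN. For AT1G22700 the same 3 differences were 1.02, 1.16 and 0.61, all in 1 direction. That direction was fixed by the separation of its groups. Without numbers 1 and 2, the log2 fold change was 0.21 for PSAN (adjusted p = 0.436) and 0.87 for AT1G22700 (adjusted p = 0.0187, with 22% of all probes called higher).

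Over the 12 samples taken as independent, an exact permutation test of the normalized values, two-sided, gave p = 0.00216 for AT1G22700, the smallest that 6 against 6 samples allow, and p = 0.784 for PSAN. With neighbouring numbers averaged there are 3 values per group, and an exact permutation test cannot go below 0.1. In that exact test AT1G22700 gave this lowest value and PSAN gave p = 0.9. Both lowest p-values of AT1G22700 were fixed by the separation of its groups and add no support beyond it. The limma fit of the averaged columns, which takes its spread from all probes, gave an adjusted p of 0.0148 for AT1G22700 and 0.892 for PSAN, with 14.3% of all probes called higher.

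Of the other genes of photosystem I, few could be followed. The 4 lists of photosystem I subunits, antenna proteins, assembly factors and electron carriers held 44 genes, of which 4 had a probe of their own: both members, ATAB2 and FTRB. PSAN was the 1 subunit of 13, none of the 6 antenna proteins had such a probe, and no probe that lists several genes held any of the 44. Of the 4 genes 1 was higher under paraquat, 1 was lower and 2 did not pass, against 24% higher and 28.5% lower over all probes. No other tetratricopeptide repeat protein of thylakoid assembly on a list of 3, and none of 3 parts of the twin-arginine route that carries PSAN into the lumen, had a probe of its own. Of 21 genes of photosystem II and its antenna 4 had one, with 1 higher, 2 lower and 1 not past the threshold, and of 9 genes that remove superoxide and peroxide in the plastid 1 had one, which was higher. Some genes of these lists were on probes that list several genes. The tetratricopeptide repeat list had 1 such probe, lower under paraquat, and photosystem II had 1, also lower. Superoxide and peroxide removal had 2, of which 1 was higher and the other did not pass.

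ATAB2 (AT3G08010), a factor for the translation of plastid photosystem mRNAs, was the other assembly factor with a probe of its own. Its deposited intensity ran from 0.209 to 0.502 with a median of 0.255 under paraquat, and from 0.0206 to 0.235 with a median of 0.147 under water. The groups overlapped, and the log2 fold change of 1.21 ± 0.61 (SE, n = 6 per group) did not pass (limma adjusted p = 0.117). Without water sample 6, where ATAB2 had its lowest value, it was 0.61 (adjusted p = 0.0553). It passed with cyclic loess (1.33, adjusted p = 0.0416) and with the pseudocount (0.62, adjusted p = 0.0487).

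FTRB, a common name for AT2G04700, which the annotation tables list by its locus only, is the catalytic subunit of the reductase that passes electrons from ferredoxin, the acceptor of photosystem I, to thioredoxins. Its deposited intensity ran from 0.216 to 0.316 with a median of 0.279 under paraquat, and from 0.467 to 0.851 with a median of 0.593 under water. The groups did not overlap, as for 14.6% of all probes with every paraquat sample below every water sample. Its probe stood in the opposite direction to that of AT1G22700, as the plot of fold changes over all probes shows.

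**Figure D2:**
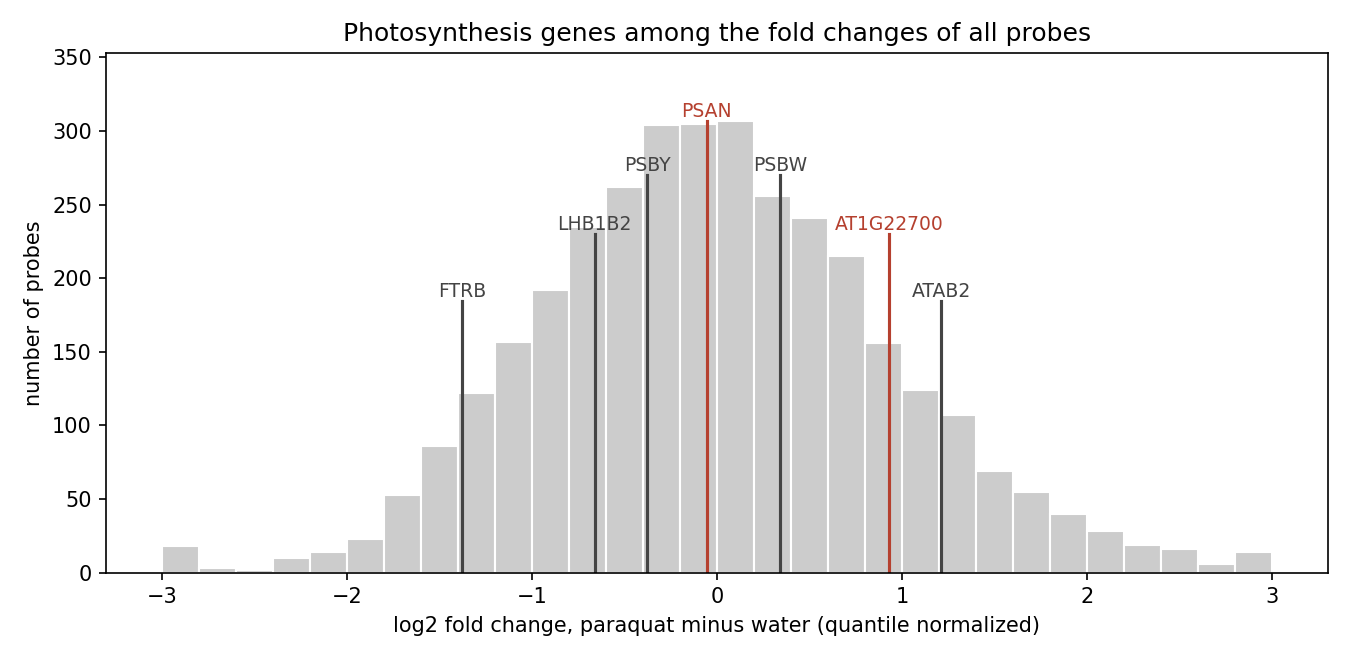
Number of probes (vertical axis) by log2 fold change, paraquat minus water, after quantile normalization, over all 3439 probes; the outermost bars also hold the probes beyond them. Vertical lines mark PSAN (-0.06) near the middle, AT1G22700 (0.93) and ATAB2 (1.21) to the right, and the comparison genes PSBW, PSBY, LHB1B2 and FTRB; line heights carry no value.

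The 2 members were then compared with each other inside each sample, as the log2 value of PSAN minus that of AT1G22700. In the values as deposited, such a difference does not change when a whole column is rescaled. As normalized values it was 4.02, 3.68, 3.65, 4.36, 4.55 and 4.85 in paraquat samples 1 to 6, against 5.99, 4.91, 4.69, 5.55, 4.75 and 5.14 in water samples 1 to 6. It was smaller under paraquat in all 6 numbered pairs, and the groups overlapped only through paraquat sample 6, which lay above water samples 3 and 5.

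The mean difference was 4.18 ± 0.48 under paraquat and 5.17 ± 0.51 under water (SD, n = 6 each), so that PSAN relative to AT1G22700 fell by 0.99 on the log2 scale (SE 0.29, exact permutation test, two-sided, p = 0.00649; adjusted p = 0.0117 over the 9 differences compared). With the values as deposited the change was -1.31 (exact permutation test, adjusted p = 0.00649). Over all 12 samples the 2 genes of photosystem I thus changed unequally, which the separate tests of each gene do not show by themselves. The difference mostly holds the change of AT1G22700, which was at 0.93 alone, with PSAN at -0.06. How many other pairs of probes would differ in this way was not computed. The size of the change in PSAN minus AT1G22700 depended on the sample number. For number 1 the difference was 4.02 under paraquat against 5.99 under water. It was 4.55 against 4.75 for number 5 and 4.85 against 5.14 for number 6. Without numbers 1 and 2 the change was -0.66 and did not pass (exact permutation test, p = 0.0857, where 4 against 4 samples cannot go below 0.0286; adjusted p = 0.0964).

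The same within-sample difference was formed against 3 genes of photosystem II and against FTRB. PSBW, a small subunit of photosystem II, had a log2 fold change of 0.34 (limma adjusted p = 0.00721), PSBY, another small subunit, -0.38 (adjusted p = 0.0203), LHB1B2 of the light-harvesting antenna -0.66 (adjusted p = 0.00141) and FTRB -1.38 (adjusted p = 5.11e-05). PSB27 was the other photosystem II gene with a probe of its own (-0.03 ± 0.47, SE, adjusted p = 0.975) and was not used here; the comparison genes were chosen with earlier results of these data known. Calls and directions changed with the processing: as deposited, neither PSBW (0.09, adjusted p = 0.6) nor PSBY (-0.19, adjusted p = 0.248) passed, and LHB1B2 did not pass after position centring in wide steps, described further on (-0.20, adjusted p = 0.36). With neighbouring numbers averaged, PSBW (limma adjusted p = 0.123) and PSBY (adjusted p = 0.148) did not pass. LHB1B2 (adjusted p = 0.0385) and FTRB (adjusted p = 0.0113) did, and the pair as a block changed none of these calls. PSBW turned to -0.26 with median centring, and PSBY to 0.19 with centring on the exact place and 0.42 with that centring of the deposited values. FTRB was at -0.85 after that centring, where it lost the call with averaging and block (adjusted p = 0.077), and at -0.58 with position centring of the deposited values (adjusted p = 0.0104).

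AT1G22700 rose against these 4 genes. Relative to FTRB it was higher by 2.31 ± 0.26 under paraquat, relative to LHB1B2 by 1.59 ± 0.26 and relative to PSBY by 1.31 ± 0.27 (log2, SE, n = 6 per group). Each of these 3 had all paraquat samples above all water samples (exact permutation test, adjusted p = 0.00487 for each). For FTRB and LHB1B2 that outcome was fixed by the single genes. Every paraquat sample lay above every water sample for AT1G22700, and below every water sample for FTRB and for LHB1B2. For PSBY it was fixed too. Its groups overlapped on the normalized log2 scale, with 0.25 as the highest under paraquat and 0.19 as the lowest under water. This overlap was smaller than the gap between the AT1G22700 groups, where the lowest under paraquat was -1.91 and the highest under water -2.07. All 3 tests thus add no support beyond the single genes. How many other probes would separate from these 3 genes in this way was not computed. Relative to PSBW, AT1G22700 was higher by 0.59 ± 0.21 (exact permutation test, adjusted p = 0.026), with overlapping groups and all 6 numbered pairs in that direction, and by 0.94 in the values as deposited (adjusted p = 0.00649). This last difference did not pass with the pseudocount (0.29, adjusted p = 0.0828), nor without paraquat sample 2 (0.50, adjusted p = 0.0584) or water sample 6 (0.59, adjusted p = 0.0612).

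Relative to FTRB, PSAN was higher by 1.32 ± 0.20 under paraquat (log2, SE, n = 6 per group, exact permutation test, adjusted p = 0.00487), with no overlap between the groups. This difference was 0.85 in the values as deposited (adjusted p = 0.00487), and 0.53 with position centring of these, where it did not pass (adjusted p = 0.122). It mostly holds the change of FTRB, which was at -1.38 alone, with PSAN at -0.06. How many other probes would separate from FTRB in this way was not computed. PSAN was higher relative to LHB1B2 by 0.60 ± 0.25 and lower relative to PSBW by 0.40 ± 0.16 (exact permutation test, adjusted p = 0.0438 for both). These last 2 calls were fragile: the first did not pass when any of 10 of the 12 samples was left out, and the second when any of 8 was. With the sample number as a block, PSAN minus LHB1B2 did not pass either (exact permutation within the 6 numbers, adjusted p = 0.0703). Against PSBY the difference was 0.32 ± 0.27 and did not pass (exact permutation test, adjusted p = 0.262). As deposited it was -0.10, so no order of PSAN and PSBY can be given.

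**Figure D3:**
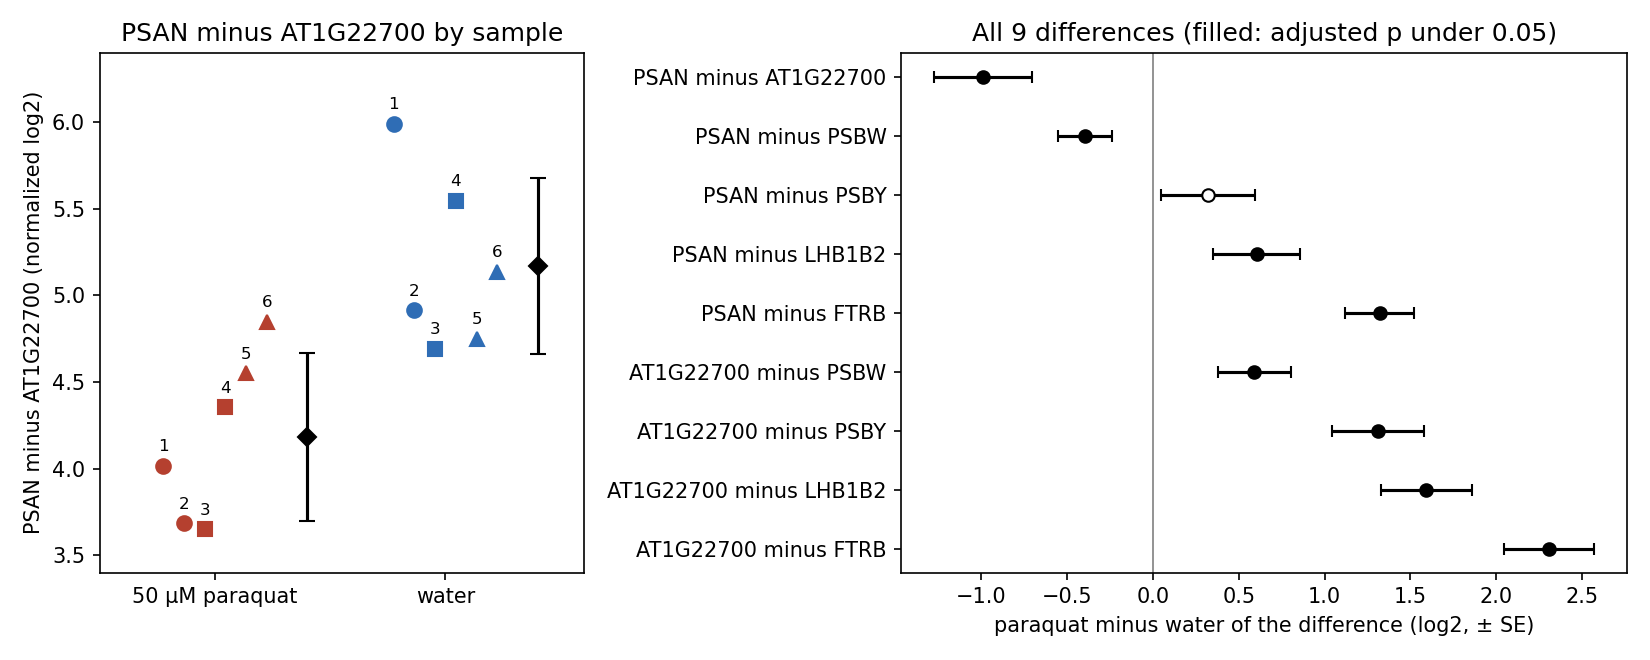
Left, the normalized log2 value of PSAN minus that of AT1G22700 in each sample, with 50 µM paraquat left of water, sample numbers beside the points and means ± SD (n = 6) in black; paraquat averages 4.18 and water 5.17. Right, the change of each of the 9 within-sample differences, paraquat minus water, on the log2 scale ± SE; filled points have an adjusted p under 0.05 by the exact permutation test, and PSAN minus PSBY is the open one.

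The result for PSAN changed with the scaling of the columns. Over all probes, the median log2 fold change was -0.04 with quantile normalization, 0.19 in the values as deposited and -0.16 with median centring. PSAN was at -0.28 as deposited (adjusted p = 0.262), at -0.63 with median centring, where it passed as lower under paraquat (adjusted p = 0.034, as did 32.4% of all probes), and at 0.07 with cyclic loess (adjusted p = 0.783). AT1G22700 was at 1.03 as deposited, 0.68 with median centring and 1.05 with cyclic loess, and passed as higher in each (adjusted p between 0.000377 and 0.00633). The shares of all probes that passed as higher in these 3 fits were 32.3%, 20.8% and 25.5%.

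The place of a probe also moved with its fold change. Fold changes repeated in part along the probe numbers, with a period of 288 numbers, the best of many lengths tried. Place in this period accounted for 27.8% of the variance of the log2 fold changes (adjusted R2, fold changes limited to 2 either way). In 24 steps of 12 numbers each it accounted for 22.2% (unadjusted R2), and step medians ran from -0.77 to 0.61. Both members lie in steps with low medians. The other 125 probes in the step of PSAN had a median log2 fold change of -0.58, with 20 called higher and 71 lower under paraquat. The other 137 probes in the step of AT1G22700 had a median of -0.42, with 7 called higher and 60 lower.

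With each sample centred on the median of its step, AT1G22700 was at 1.44 (adjusted p = 0.000119) and PSAN at 0.45, where it passed as higher under paraquat (adjusted p = 0.0389), as did 21.2% of all probes. Once neighbouring numbers were averaged too, with each pair as a block, AT1G22700 passed at the same size (adjusted p = 0.0216, with 12.2% of all probes called higher) and PSAN did not (adjusted p = 0.145). Centring on the exact place in the period, which holds 12 other probes for PSAN and 14 for AT1G22700, gave 0.15 for PSAN (adjusted p = 0.547) and 1.28 for AT1G22700 (adjusted p = 0.000509, with 19.8% of all probes called higher). Among the probes at its exact place AT1G22700 had the highest log2 fold change, and the next was at 0.78. An effect of place and an order of genes along the probe numbers cannot be told apart.

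**Figure D4:**
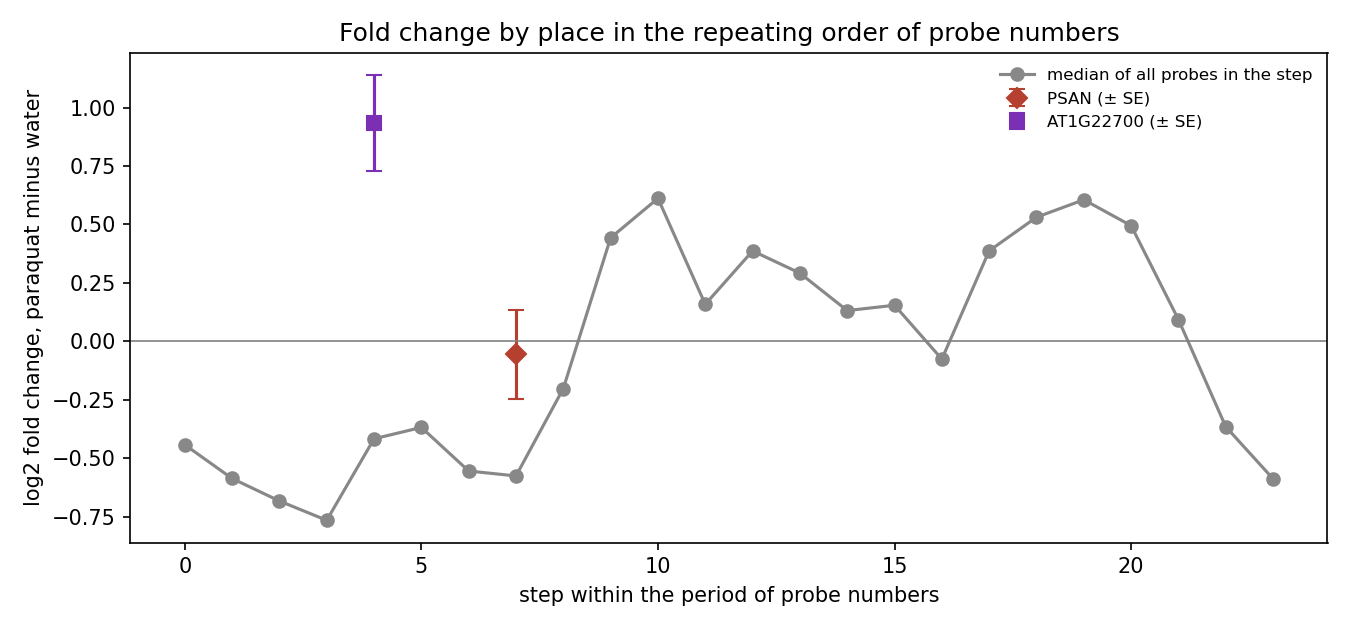
Median log2 fold change, paraquat minus water, of all probes in each of 24 steps of the repeating order of probe numbers (grey), with PSAN and AT1G22700 drawn at their own steps ± SE. PSAN (-0.06) and AT1G22700 (0.93) both lie above the medians of their steps, and the step of PSAN is close to where the medians turn from low to high.

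**Figure D5:**
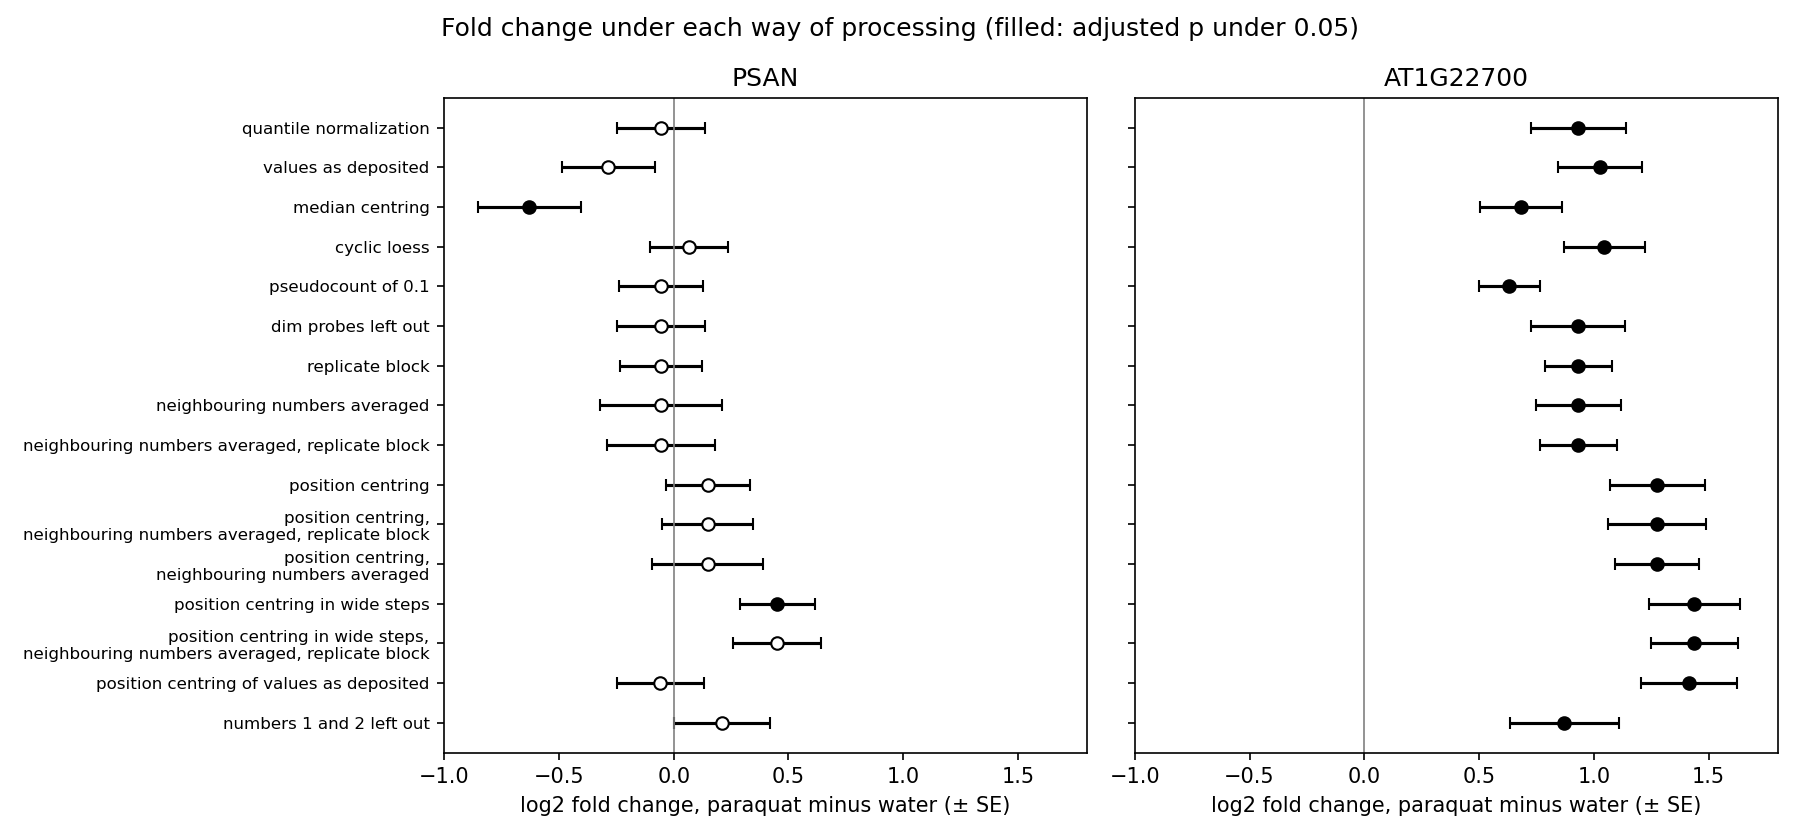
Log2 fold change, paraquat minus water, ± SE, of PSAN (left) and AT1G22700 (right) under each way of processing named on the vertical axis; filled points have an adjusted p under 0.05. AT1G22700 is filled and above 0 throughout, between 0.63 and 1.44, and PSAN is filled at -0.63 with median centring and at 0.45 with position centring in wide steps.

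As a description, the genes whose normalized values were most like those of each member were found among 635 other probes with 1 gene and no zero, by Pearson's r over the 12 samples. For AT1G22700 they were FBL17 (AT3G54650), an F-box protein of the cell cycle, at 0.947, AT5G53920 at 0.931 and AT1G19490 at 0.876. All 3 were higher under paraquat, with log2 fold changes of 1.93, 1.04 and 1.89, so r holds the difference between the groups. With the group means taken off, r was 0.854, 0.784 and 0.595. The points share their 12 columns. After centring on the exact place r was 0.751, 0.923 and 0.650, and the fold change was 1.07 for FBL17 (adjusted p = 0.0241; 0.104 with averaging and block), 1.09 for AT5G53920 (adjusted p = 0.0019) and 0.31 for AT1G19490 (adjusted p = 0.149). In wide steps the fold change was 1.42 for FBL17 (adjusted p = 0.00251), 0.50 for AT5G53920 (adjusted p = 0.07) and 1.18 for AT1G19490 (adjusted p = 0.00029).

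For PSAN the most alike were AT4G33540 at 0.822, AT5G17630 at 0.748 and AT3G50880 at 0.728. None of the 3 passed the main test, with log2 fold changes of 0.05, -0.14 and -0.29 (limma adjusted p = 0.8, 0.316 and 0.134). After centring on the exact place AT4G33540 passed as higher (0.55, adjusted p = 0.00859) and AT5G17630 as lower (-1.12, adjusted p = 0.00134), and AT3G50880 did not pass (0.17, adjusted p = 0.451). AT3G50880 passed as higher with that centring of the deposited values (0.49, adjusted p = 0.0124) and as lower without water sample 3 (-0.41, adjusted p = 0.0171). The likeness of AT4G33540 and AT5G17630 depended on the processing, with r of 0.274 and 0.297 in the values as deposited and 0.322 and -0.10 after centring on the exact place. That of AT3G50880 was 0.710 as deposited and 0.841 after centring. PSAN and AT1G22700 themselves correlated at -0.06 over the same samples.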

How the data were processed

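Array intensities of 3439 probes in 12 samples were used as deposited by the authors, on a linear scale; scanner, background correction, scaling and build are not given in the sources used here, so no coordinates are printed. The unit was read from the values. The members and gene lists were chosen with earlier results of these data known.

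Each zero took the smallest positive value of its column, columns were quantile normalized and log2 taken. The main test of each probe was two-sided, from a linear model with moderated variances (limma 3.58.1, R 4.3.3) on the 12 samples and no block; p-values were adjusted over all 3439 probes by Benjamini-Hochberg, at a threshold of 0.05. Log2 fold changes are paraquat minus water. Within-sample differences were tested by exact permutation (scipy 1.17.1), adjusted over 9. Read depth has no counterpart on arrays; precision is limited by how many samples there are. Tested on simulated data (paraquat against water, 3439 probes, 200 of them changed), the fit found 12.5% of changes of size 0.5 on the log2 scale and 72% of those of size 1. The simulated noise was independent between samples and probes, and a far smaller share of probes changed than the 52.5% called in the data. The shares found therefore do not measure how often the fit finds such changes here.

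Probes were named through the platform annotation and RefSeq: 692 had 1 gene, 870 several, and 1877 were not listed and are unnamed here. Of the 692, 690 were matched in RefSeq (TAIR10.1); FTRB is a common name not taken from these tables. The genes named were both members, 4 comparison genes, single-gene probes of 7 fixed lists, and 3 genes most alike to each member. Samples were paired by the equal numbers in their labels, which do not say whether equal numbers share an origin. Equal sample numbers deviated together (correlations 0.337 to 0.505, 3186 probes). Unequal numbers were not set beside them, so these correlations do not show a pairing by equal number. Alternatives were other scalings, a pseudocount of 0.1, a filter on dim probes, blocks, averaged neighbours, position centring and left-out samples; position centring in wide steps, of the deposited values, or averaged without a block was chosen after seeing the data.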

Additional observations from a re-analysis of the deposited data

Results flagged for a closer look

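Among the 14 named genes, 28 groups of 6 samples were examined, and 3 of them held a sample whose gap to its neighbour was large for the range of its group (Dixon's test, 95% level); about 1.4 such groups would arise by chance. Neither PSAN nor AT1G22700 was among them. ATAB2 in water sample 6 was at -6.20 on the normalized log2 scale, against -3.13 for the next lowest (ratio 0.755). Without that sample the fold change of ATAB2 was the lowest of those with 1 sample left out, 0.61. LHB1B2 in water sample 6 was at 4.63, against 4.15 for the next highest (ratio 0.638). AT1G19490 in water sample 4 was at -2.72, against -2.02 for the next lowest (ratio 0.658).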

How the results depend on the processing

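AT1G22700 passed as higher under paraquat in all 27 alternatives, between 0.63 and 1.44 on the log2 scale (limma adjusted p at most 0.0397), and between 0.81 and 1.05 with 1 sample left out. PSAN passed in 2 of 27, in opposite directions: at -0.63 with median centring and at 0.45 with position centring in wide steps. Its sign turned with cyclic loess (0.065), with position centring (0.15, the same with neighbours averaged, with and without the pair as a block), with wide steps, averaging and block (0.45) and without numbers 1 and 2 (0.21). With 1 sample left out PSAN ran from -0.14 to 0.045, above 0 without water sample 1 or paraquat sample 3.

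The count of 1805 changed probes was 1160 with neighbours averaged, and with position centring 745 with averaging, 513 with averaging and block, and 926 in wide steps with averaging and block. It was 1964 with the replicate block and 1681 to 1813 with 1 sample left out. Of the calls 45.8% were higher under paraquat, and 60.1% as deposited and 72.8% after position centring of the deposited values.

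Within-sample differences of averaged columns have 3 values per group and could not pass at 0.05, so only their sizes were compared. PSAN minus PSBY turned to -0.10 as deposited and with median centring, to -0.041 with position centring (alone, averaged, and averaged with the block) and to -0.48 with position centring of the deposited values, and was 0.16 to 0.46 with 1 sample left out. PSAN minus LHB1B2 did not pass as deposited or with median centring (0.41), with cyclic loess (0.45), the replicate block (0.60), position centring (0.42) or position centring of the deposited values (0.22), and was 0.46 to 0.74 with 1 sample left out. PSAN minus PSBW did not pass with cyclic loess (-0.32), position centring (-0.58), wide steps (-0.35) or position centring of the deposited values (-0.56), and was -0.48 to -0.31 with 1 sample left out. PSAN minus FTRB was 0.85 as deposited and did not pass with position centring of the deposited values (0.53), nor AT1G22700 minus PSBW with the pseudocount (0.29), which was 0.48 to 0.71 with 1 sample left out. Without numbers 1 and 2, an exact test of 4 against 4 samples cannot go below 0.0286, and the 4 of 9 differences at that p had an adjusted p of 0.0643, so that the lack of a call says little here: PSAN minus AT1G22700 was -0.66, PSAN minus PSBW -0.17, PSAN minus LHB1B2 0.89, PSAN minus FTRB 1.36 (at that p), and AT1G22700 minus PSBW 0.49, and, at that p, minus PSBY 1.31, minus LHB1B2 1.55 and minus FTRB 2.02. The replicate block changed no other call than that of PSAN minus LHB1B2. The cause of these changes was not tested.

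Of the other named genes, PSBW turned to -0.26 with median centring. PSBY turned to 0.19 with position centring (also averaged, with and without the block), to 0.16 in wide steps (with and without averaging and block) and to 0.42 with position centring of the deposited values. AT5G17630 turned to 0.18 as deposited and 0.018 without numbers 1 and 2, AT3G50880 to 0.022 as deposited, 0.17 with position centring (also averaged, with and without the block) and 0.49 with position centring of the deposited values, and AT4G33540 to -0.018 without water sample 3 and -0.011 without paraquat sample 5 (range with 1 sample left out -0.018 to 0.14). Calls were gained by AT4G33540 with position centring (0.55), in wide steps (0.53) and with centring of the deposited values (0.93), and by AT5G17630 with the same 3 (-1.12, -0.65 and -0.76). AT5G17630 also passed with position centring and neighbours averaged without a block (-1.12, limma adjusted p = 0.046). Signal over background is unknown, which limits what can be said of AT1G22700, whose water values are dim.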
